A study of Mus musculus with 7 samples.

Results

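The transcripts described are 9 leukocyte adhesion molecules and epithelial junction proteins: Icam1, Icam2, Icam4, Icam5, Vcam1, Sele, F11r, Cd44 and Cdh1. They were taken by gene symbol from a table of 23329 genes, and all 9 were found in it. The table comes from Beta-TC6 cells, an insulin-secreting line grown from a beta-cell tumour of a transgenic mouse. All 7 libraries are wild type: 4 are from vehicle-treated cells and 3 from cells given IL1B (interleukin-1 beta), the inflammatory cytokine whose receptor switches on NF-kB. Both groups were grown in DMEM with 15% serum and had their clocks synchronised by forskolin, 10 µM for 1 h. The sources used here do not give the IL1B dose, how long it was present or when cells were harvested. A single tumour line without vessels or leukocytes is a limited model of an islet, since most adhesion molecules are studied on endothelium and act on leukocytes that this culture does not hold.

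In an inflamed tissue, leukocytes first roll on selectins, then stop when their integrins grip immunoglobulin-type receptors such as ICAM-1 and VCAM-1, and finally pass between cells through junctions that hold JAM-A. Cytokine-treated endothelium makes E-selectin, VCAM-1 and ICAM-1 through NF-kB, and ICAM-1 can also be induced on epithelial and endocrine cells. CD44, the hyaluronan receptor, and E-cadherin, the epithelial cell-cell adhesion protein that binds the integrin of intraepithelial lymphocytes, are the other 2 members of the set.

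The libraries hold 5335607 to 7513934 counts. CPM below are counts scaled to the total of the tested genes with TMM factors, and 3 counts in a library equal 0.395 to 0.557 CPM. The floor used for folds is 3 counts summed over a group. Within groups, pairs that included the second library of either group differed more (chi-square per degree of freedom 2.87 to 4.87 in 5 pairs) than the other 4 pairs (1.52 to 1.69). Whether the libraries of a group came from separate cultures is not in the labels, so the spread behind each p-value may be technical. The insulin transcript Ins2 was high in all libraries, with 21183 ± 1599 CPM (SD, n = 4) in the vehicle group and 22372 ± 715 (n = 3) in the IL1B group. The beta-cell markers Pdx1 and Mafa fell with IL1B, and the whole marker list is given below. The cytokine response was plain in Nfkbia, the NF-kB inhibitor gene, at 31.1 ± 1.49 CPM with vehicle and 479 ± 18.4 with IL1B.

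Of the 9 adhesion molecules, Icam1, Sele, F11r and Icam5 rose with IL1B, Cd44 and Cdh1 did not pass the test, and Icam2, Icam4 and Vcam1 were too scarce to enter it. The test was edgeR's quasi-likelihood test over 12480 genes, with a threshold of 0.05 on the Benjamini-Hochberg adjusted p. Over all genes tested, 968 (7.76%) were called higher and 406 (3.25%) lower, and with total-count scaling the numbers were 844 and 556. The 4 members that rose did so at least 2-fold, which 1.97% of all genes tested did. The groups did not overlap for 5 of the 6 tested members, in each case with IL1B higher. Of all genes tested, 21.0% had groups that did not overlap, 12.1% with IL1B higher and 8.83% with IL1B lower. No member was called lower by edgeR, DESeq2 or limma-voom, and none had an unadjusted edgeR p under 0.05 in that direction (0 in each). Icam1, Sele and Icam5 met the low-count filter only in their IL1B libraries. A fall in them could not have been seen, and the count of members that rose therefore says nothing of a direction of the set. F11r, Cd44 and Cdh1 met the filter in both groups. In bulk RNA, fewer cells of a type and less RNA per cell cannot be told apart.

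**Figure D1:**
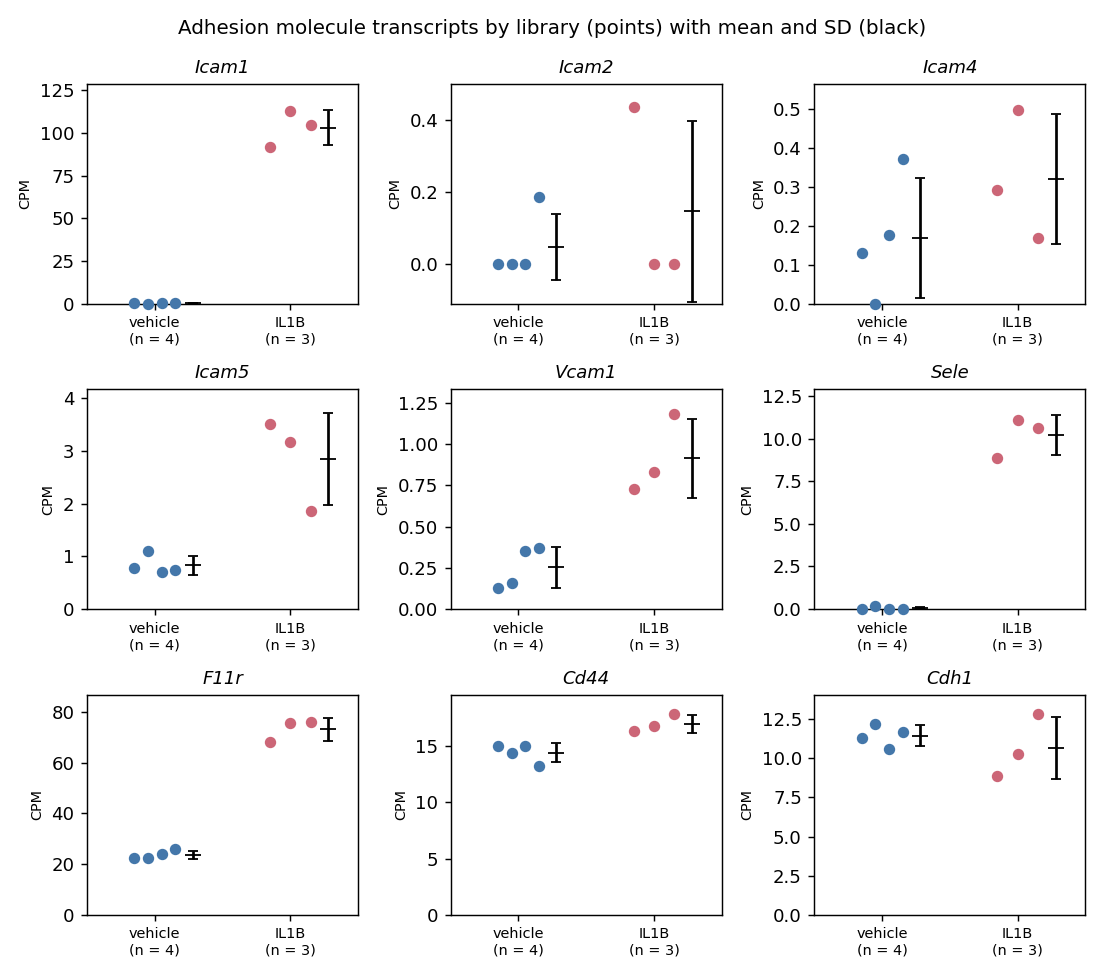
Each panel plots 1 transcript, with CPM on a linear vertical axis, a point per library (vehicle n = 4, IL1B n = 3), and the mean and SD in black. Icam1, Sele, F11r and Icam5 show separate groups, and so do Cd44, which did not pass the test, and Vcam1, which was below the filter. Cdh1 groups overlap, and the Icam2 and Icam4 panels rest on 0 to 3 counts per library.

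Icam1 encodes ICAM-1, the receptor for the leukocyte integrins LFA-1 and Mac-1. It lies on chromosome 9 of GRCm38, 21015985 to 21028817, on the plus strand, and its longest annotated transcript has 7 exons. It had 2, 1, 1 and 3 counts in vehicle libraries 1 to 4 and 632, 679 and 621 in IL1B libraries 1 to 3. On the CPM scale the vehicle libraries ran from 0.157 to 0.557, and the IL1B libraries stood at 92.1, 113 and 105. Every vehicle library had 3 counts or fewer, and every IL1B library was far above that. The log2 fold change was 8.43 (SE 0.19, edgeR adjusted p = 2.6e-17), which ranked 4 among the 12480 genes by size of increase. The ratio of summed counts was 367, with a 95% counting interval of 178 to 915, because only 7 counts stand behind the vehicle level. Counting intervals and floors cover counting error only.

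Sele encodes E-selectin, the rolling receptor that is classically restricted to cytokine-activated endothelium. It lies on chromosome 1, 164048234 to 164057677, plus strand, in 14 exons. It had 0, 1, 0 and 0 counts with vehicle and 61, 67 and 63 counts with IL1B. The IL1B libraries stood at 8.89, 11.1 and 10.6 CPM. Sele thus went from 1 count in 4 libraries to a low level that all 3 treated libraries shared. The ratio of summed counts was 254 (95% counting interval 45.1 to 10096), and the edgeR adjusted p was 2.1e-10. The size rests on that 1 count: without the second vehicle library the vehicle group had none. Set against a floor of 3 counts over the remaining vehicle libraries, Sele was 63.1-fold higher. That value leaves out the only vehicle library with a count, so it is not a lower limit for all libraries, where the counting interval starts at 45.1. Its neighbour Selp, which encodes P-selectin, was not called. Selp had 3.54 ± 0.647 CPM in vehicle libraries and 3.05 ± 0.387 in treated ones (edgeR adjusted p = 0.640).

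F11r encodes JAM-A, a tight junction protein that binds itself on the next cell and can bind LFA-1. It lies on chromosome 1, 171437535 to 171464603, plus strand, in 10 exons. Unlike Icam1 and Sele, it was already well expressed with vehicle, at 22.5, 22.2, 23.8 and 25.8 CPM in libraries 1 to 4. With IL1B it stood at 68.0, 75.6 and 75.9 CPM. The lowest treated library was far above the highest vehicle library. The log2 fold change was 1.64 (SE 0.08, edgeR adjusted p = 2.2e-11), a 3.11-fold rise with a 95% interval of 2.75 to 3.51.

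The sequences just upstream of these 3 genes are shown because the genes rose together and their vehicle levels were so different. Each is the 250 bases before the RefSeq start (GRCm38.p6), 5′ to 3′ on the gene's strand, and capitals mark every match to a motif searched. Icam1 covers chr9:21015690-21015939, Sele chr1:164047984-164048233 and F11r chr1:171437311-171437560, all on the plus strand. For Icam1 and F11r the RefSeq start differs from the gene start given above. The Icam1 window ends short of that gene start, and the F11r window runs past it into the gene. Motif positions are counted from the RefSeq start.
Icam1: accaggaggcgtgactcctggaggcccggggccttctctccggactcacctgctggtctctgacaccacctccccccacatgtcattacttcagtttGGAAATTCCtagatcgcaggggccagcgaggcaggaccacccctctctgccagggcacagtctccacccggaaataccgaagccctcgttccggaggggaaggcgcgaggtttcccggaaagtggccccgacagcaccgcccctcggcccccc
Sele: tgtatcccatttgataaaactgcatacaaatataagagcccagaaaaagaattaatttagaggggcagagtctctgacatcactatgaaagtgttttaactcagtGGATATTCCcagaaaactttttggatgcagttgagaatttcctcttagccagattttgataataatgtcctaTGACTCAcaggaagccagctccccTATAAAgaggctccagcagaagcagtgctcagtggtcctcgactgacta
F11r: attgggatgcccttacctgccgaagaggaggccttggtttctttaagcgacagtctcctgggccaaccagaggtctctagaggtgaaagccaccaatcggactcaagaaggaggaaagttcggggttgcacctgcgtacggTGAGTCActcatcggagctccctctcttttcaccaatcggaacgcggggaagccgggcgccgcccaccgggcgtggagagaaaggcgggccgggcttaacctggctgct

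The motifs, searched on both strands, were the 10-base NF-kB consensus by name, the shorter GGANNTTCC, the AP-1-type TGANTCA, the E-box CACGTG bound by clock factors, and TATAAA. A GGANNTTCC match that follows another G can also match the NF-kB consensus. Among 32851 annotated promoter windows of this length, 3.9%, 3.59%, 6.75%, 6.02% and 12.4% hold them, in that order. Icam1 has GGAAATTCC at -153 to -145 from the start, and Sele has GGATATTCC at -145 to -137. Sele also holds TGACTCA at -73 to -67 and TATAAA at -49 to -44, and F11r holds TGAGTCA at -109 to -103. Of the 6 members with an entry (these 3, Icam4, Icam5 and Cd44), none has the NF-kB consensus or CACGTG in the window, and Icam4, Icam5 and Cd44 match no motif searched. A match describes letters and is not a shown binding site, and a missing match says only that those letters are not in the window.

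Icam5 encodes telencephalin, an ICAM of forebrain neurons. It is the last gene of a same-strand cluster in which Icam4 begins after a gap of 555 bases from Icam1 and Icam5 (21032073 to 21039036, 11 exons) after another 1477. It had 6, 7, 4 and 4 counts with vehicle and 24, 19 and 11 with IL1B. The CPM were 0.790, 1.10, 0.705 and 0.743 against 3.50, 3.16 and 1.86. The third IL1B library was lower than the other two but above every vehicle library. The log2 fold change was 1.75 (SE 0.36, edgeR adjusted p = 0.00241), or 3.36-fold with a 95% interval of 1.98 to 5.70. Gene models on the opposite strand that have no row in the table cover 791 exonic bases of Icam5 (Gm26592) and another 116 (Gm47079). Whether counting used strand is not stated, so such reads cannot be told apart from those of Icam5. Gm47079 also covers 511 exonic bases of Icam1. Icam4, which lies between Icam1 and Icam5, had 6 counts over the 3 IL1B libraries.

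Vcam1, Icam4 and Icam2 were barely detected. Vcam1 encodes VCAM-1, the ligand of the integrin VLA-4, and lies on chromosome 3, 116109949 to 116129688, minus strand. It had 1, 1, 2 and 2 counts with vehicle and 5, 5 and 7 with IL1B, so the groups did not overlap at 0.132 to 0.371 and 0.729 to 1.18 CPM. The ratio of summed counts was 3.77, with a 95% counting interval of 1.42 to 11.7. With no low-count filter its edgeR adjusted p was 0.125, and with DESeq2 0.315, so it passed neither.

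Icam4 encodes the Landsteiner-Wiener antigen of red cells and lies on chromosome 9, 21029373 to 21030595, plus strand. It had 1, 0, 1 and 2 counts with vehicle and 2, 3 and 1 with IL1B, a ratio of 2.0 with a 95% counting interval of 0.474 to 9.62. The whole of its exons, 1110 bases, lies under the opposite-strand model Gm47079. Icam2, a constitutive endothelial and leukocyte ligand of LFA-1 on chromosome 11 (106377656 to 106388075, minus strand), had 1 vehicle count and 3 IL1B counts. The summed counts of both groups were at or under the floor, so no fold is given. For Icam4 a small change was not detectable at this depth, and its interval leaves out a rise of the size seen in Icam1 or Sele.

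Cd44, on chromosome 2 (102811141 to 102901665, minus strand), encodes the hyaluronan receptor. It stood at 15.0, 14.4, 15.0 and 13.2 CPM with vehicle and at 16.3, 16.8 and 17.9 with IL1B. The groups did not overlap, but the difference was small. The log2 fold change was 0.23 (SE 0.11, edgeR adjusted p = 0.226), and the 95% interval of the fold, 0.998 to 1.38, leaves out a change of the size seen in F11r.

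Cdh1, on chromosome 8 (106603351 to 106670246, plus strand, 16 exons), encodes E-cadherin. It stood at 11.3, 12.2, 10.6 and 11.7 CPM with vehicle and at 8.89, 10.3 and 12.8 with IL1B. The treated libraries spread to both sides of the vehicle libraries. The log2 fold change was -0.11 (SE 0.15, edgeR adjusted p = 0.724), with a 95% interval of the fold from 0.749 to 1.14. Without the first IL1B library the sign turned, to a log2 fold change of 0.01 (SE 0.16).

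**Figure D2:**
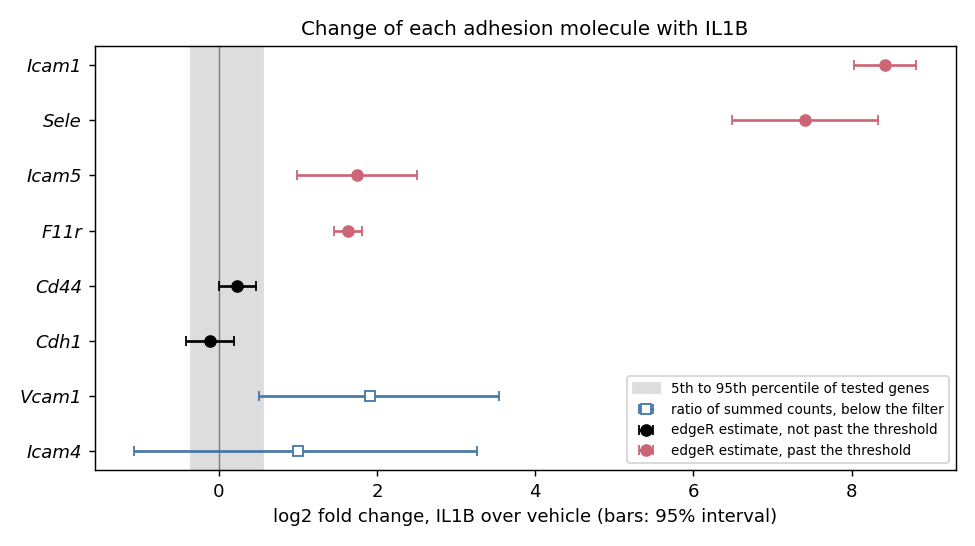
Log2 fold changes of IL1B over vehicle on the horizontal axis, with 95% intervals. Circles are edgeR estimates (red past the threshold), squares are ratios of summed counts for members below the filter, and the grey band spans the 5th to 95th percentile of all genes tested (-0.36 to 0.55). Icam2 is left out because its summed counts were 3 or fewer in both groups. Icam1 and Sele lie beyond 6, F11r and Icam5 near 1.7, and Cd44 and Cdh1 inside the band.

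To compare levels between genes, CPM were divided by the length of the annotated exons of each gene. In vehicle cells the junction and matrix receptors made up the set: F11r at 8.86 ± 0.612 CPM per kb (SD, n = 4), Cdh1 at 2.50 ± 0.151 and Cd44 at 2.12 ± 0.126. These 3 levels did not overlap. Icam5 followed at 0.283 ± 0.0606, and from there down Icam4, Icam1, Vcam1, Icam2 and Sele each overlapped with the next in order. Icam1 supplied 0.462% of the summed level of the 9 genes with vehicle, and F11r 63.0%.

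With IL1B the order on the per-length scale was F11r (27.5 ± 1.68 CPM per kb, n = 3), Icam1 (23.7 ± 2.40), Sele (3.51 ± 0.405), Cd44 (2.51 ± 0.118), Cdh1 (2.33 ± 0.435) and Icam5 (0.963 ± 0.294). F11r and Icam1 overlapped, as did Cd44 and Cdh1, and the other neighbours among these 6 did not. Below them stood Icam4 (0.288 ± 0.150), Vcam1 (0.103 ± 0.0267) and Icam2 (0.0765 ± 0.133). Icam1 then supplied 38.8% of the summed level and F11r 45.1%, and the sum went from 14.1 ± 0.680 to 60.9 ± 4.53. The order at the top depends on the length: the longest Icam1 transcript has 2535 bases where all its annotated exons span 4360, and per kb of longest transcript Icam1 stood at 40.7 ± 4.13, above F11r at 29.1 ± 1.77, with no overlap. On that length Cdh1 and Cd44 overlapped with vehicle but not with IL1B, and Sele and Cd44 overlapped with IL1B. Icam4 also overlapped Vcam1 with IL1B, as Vcam1 stood at 0.223 ± 0.0580 there. The annotated exons of Vcam1 span 8870 bases, and its longest transcript has 4088 bases in 1 exon. Neither length may be that of the mRNA counted, so the level of Vcam1 per kb and its place in the order are uncertain.

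**Figure D3:**
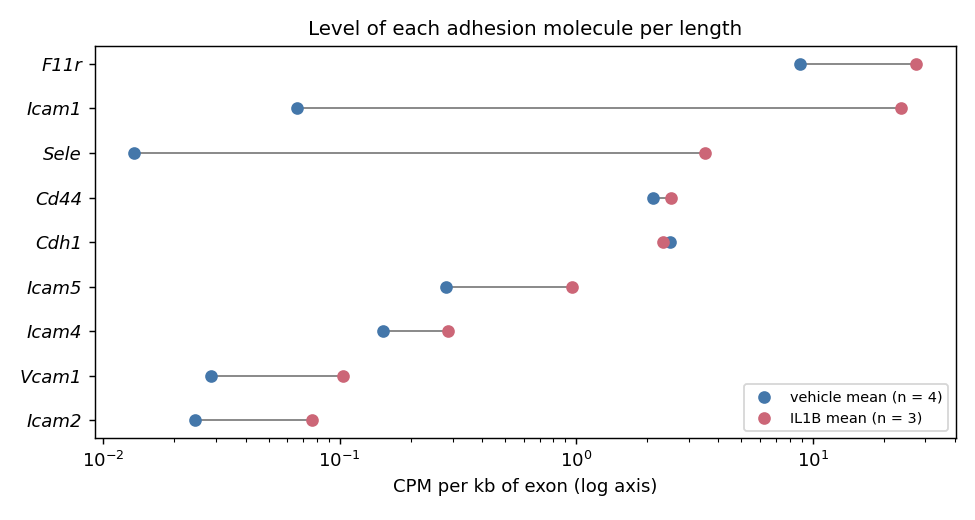
Mean CPM per kb of exon on a log axis, with vehicle (n = 4) in blue and IL1B (n = 3) in red, joined for each transcript and ordered by the IL1B level. Icam1 and Sele span the widest ranges, from 0.0661 to 23.7 and from 0.0134 to 3.51, while Cd44 goes from 2.12 to 2.51 and Cdh1 from 2.50 to 2.33.

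Over the 7 libraries, the transcripts whose log2 CPM were most like that of Icam1 were Nfkb1 (Pearson r 0.999), Cgn (0.999) and Nfkb2 (0.999). Nfkb1 and Nfkb2 encode NF-kB subunit precursors, and Cgn encodes cingulin, a tight junction plaque protein. For Sele they were Glipr2, Nfkbiz and Atf3 (0.999 each), and for F11r Ube2h (0.999), Zbtb17 (0.998) and Icam1 itself (0.998). For Icam5 they were Dbx2 (0.991), Krt8 and Camk2n2 (0.989 each), for Cd44 they included Nrp1 (0.972), and for Cdh1 Ulk3, 1810026B05Rik (0.966 each) and P2rx7 (0.962). These values are descriptions over 2 separate groups of libraries, and where a gene rose, r mostly restates the group difference.

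The wider adhesion machinery was read from 8 lists holding 182 symbols, of which 180 were in the table and 122 were tested. Of those, 18 (of 122) rose and 4 fell, and the median log2 fold change was 0.05, against -0.0087 over all genes tested. Over all genes tested, 7.76% were called higher and 3.25% lower, the shares against which these counts and those of each list are to be read. For the 4 of 122 that fell, the share is near that of all genes. Among selectins and their ligands, 2 of 8 tested genes rose and 1 fell. Cd24a, whose product can carry P-selectin ligands, rose 1.61-fold to 395 ± 20.8 CPM (edgeR adjusted p = 5.6e-08). Chst2, a sulfotransferase that builds selectin ligands, rose 2.33-fold. Gcnt1, a branching enzyme for selectin-binding glycans, fell 1.37-fold (edgeR adjusted p = 0.0134). Its call was lost without the second IL1B library (adjusted p = 0.0722) and with DESeq2 (0.103).

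Among integrin chains, 1 of 10 rose and 1 fell. The leukocyte chains that grip ICAM-1 were nearly absent: Itgal had 17 vehicle and 14 IL1B counts, Itgam 0 and 5, and Itgb2 2 and 0. Itga4, a chain of the VCAM-1 receptor, stood at 29.8, 21.8, 25.7 and 29.3 CPM with vehicle and at 21.4, 13.8 and 18.2 with IL1B. It fell 1.49-fold (edgeR adjusted p = 0.00800), a call lost without the second IL1B library (adjusted p = 0.0637). Its partner Itgb1 was abundant and did not pass (534 ± 18.7 and 525 ± 20.9 CPM, edgeR adjusted p = 0.844). Itga2, a collagen receptor chain, had 1, 0, 7 and 4 counts with vehicle and 36, 27 and 43 with IL1B and rose by 3.50 on the log2 scale (SE 0.46, adjusted p = 1.4e-05 by edgeR).

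Of 27 other surface adhesion molecules tested, 5 rose and none fell (by DESeq2 and limma-voom 0 fell as well, and 1 had an unadjusted edgeR p under 0.05 in that direction). Madcam1 encodes the mucosal addressin, an endothelial receptor for gut-homing lymphocytes. It had 3, 4, 1 and 2 counts with vehicle and 25, 27 and 23 with IL1B, a rise of 3.26 on the log2 scale (SE 0.38, adjusted p = 3.1e-06 by edgeR). Madcam1 and Itga2 passed the filter through IL1B libraries alone. The others were Cd82 (2.19-fold), a tetraspanin, Cd47 (1.83-fold), the do-not-eat-me signal, Pvr (1.72-fold), a nectin-like receptor, and Alcam (1.54-fold), the ligand of CD6. Jam3, which encodes a relative of JAM-A, stood at 29.5 ± 2.08 and 32.0 ± 2.50 CPM (edgeR adjusted p = 0.551).

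Of 18 tight junction genes, the list nearest to F11r in function, 2 rose and 2 fell, where 7.76% and 3.25% of all genes did. These counts are too small to set the list apart from other genes. Cgn stood at 21.2 ± 1.24 CPM with vehicle, the 4 libraries reaching at most 22.5, and at 65.6 ± 3.15 with IL1B, where the lowest was 62.4, a 3.09-fold rise (edgeR adjusted p = 2.2e-11). By contrast Cldn1, a claudin of the strand itself, fell 1.67-fold (81.6 ± 7.05 to 49.1 ± 3.02 CPM, edgeR adjusted p = 2.0e-06), and Tjp1, encoding ZO-1, fell 1.25-fold. The rise in Cgn was about the size of that in F11r.

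Around Cdh1, 3 of 18 cadherin and catenin genes rose and none fell (0 by DESeq2 and limma-voom, and 1 at an unadjusted edgeR p under 0.05). Ctnnd1, encoding p120-catenin, rose 1.32-fold (edgeR adjusted p = 0.00109). Ctnnb1 (1.13-fold) and Cdh22 (1.21-fold) passed more narrowly. Each lost its call in 9 of 15 alternatives: Ctnnb1 without any 1 library except the second vehicle library (edgeR adjusted p up to 0.173), and Cdh22 when vehicle library 1, 3 or 4, or else IL1B library 1 or 3, was left out (up to 0.157). Cdh2, encoding N-cadherin, did not pass (184 ± 8.18 and 174 ± 8.22 CPM, edgeR adjusted p = 0.481).

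None of 13 tested genes of the CD44 and hyaluronan list passed by edgeR, DESeq2 or limma-voom (0 in each), and 1 had an unadjusted edgeR p under 0.05, in the upward direction. They include the CD44 linkers Ezr, Msn and Rdx and the ligand gene Spp1. Of 10 sheddase genes, which act in trimming adhesion molecules from the surface, 2 rose and none fell (0 by DESeq2 and limma-voom, 1 at an unadjusted edgeR p under 0.05). Rhbdf2, a chaperone of the protease ADAM17, rose 3.73-fold (edgeR adjusted p = 1.3e-06), while Adam17 and Adam10 themselves did not pass. Adam15 rose 1.20-fold, a call lost in 9 of 15 alternatives, among them vehicle library 1 or 3 or any IL1B library left out (adjusted p up to 0.123). Of 18 cytoplasmic partners of ICAM-1 and VCAM-1, 3 rose and none fell (0 by the other tools and at an unadjusted edgeR p under 0.05): Zyx 2.10-fold, Pxn 1.47-fold and Rhog 1.46-fold. Zyx and Pxn encode focal adhesion proteins, and Rhog a GTPase of the cup that endothelium forms around a leukocyte.

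**Figure D4:**
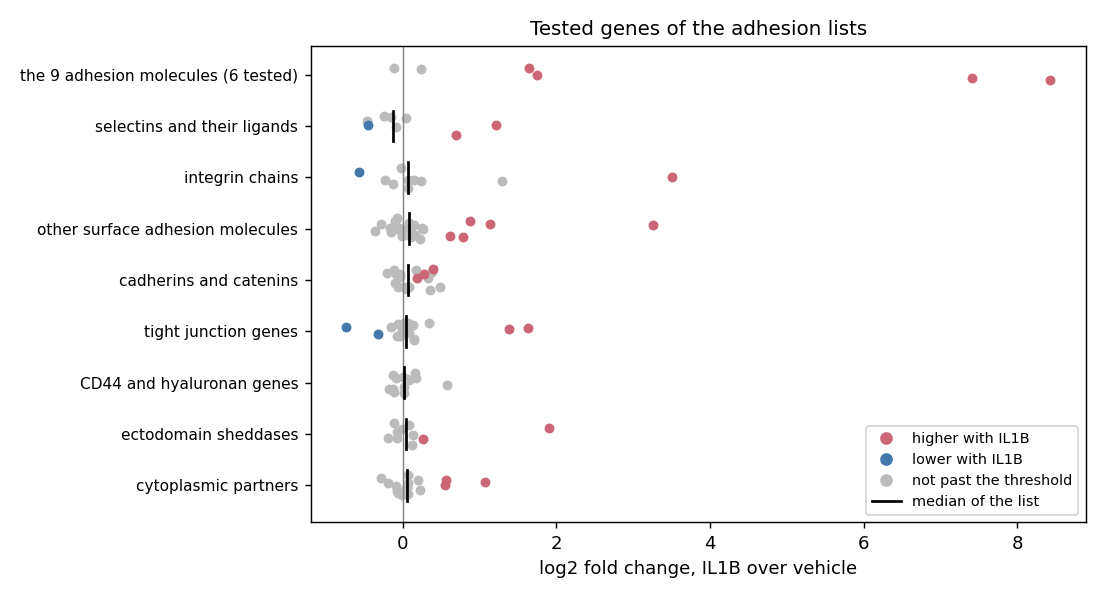
Log2 fold changes of IL1B over vehicle for the tested genes of each list, 1 point per gene, red where higher, blue where lower and grey where not past the threshold, with list medians as black bars (none for the 9 members). List medians run from -0.12 to 0.08, and the points beyond 3 are Icam1, Sele, Itga2 and Madcam1.

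The neighbourhood of Icam1 was read within 100 kb of the gene. Of 7 tested genes there, 4 were called higher, where 7.76% of all genes were, and none lower. Besides Icam5 they were S1pr2, Tyk2 and Raver1, which were picked out after their values were seen. Icam5 is itself a member and met the low-count filter only in its IL1B libraries, so a fall in it could not have been seen. The count of 4 therefore does not set the region apart from other genes. S1pr2, a sphingosine 1-phosphate receptor gene that starts 39.2 kb before Icam1, stood at 4.61, 4.23, 4.23 and 2.97 CPM with vehicle and at 12.2, 18.0 and 12.5 with IL1B. It rose 3.48-fold (edgeR adjusted p = 8.3e-07). Tyk2, a kinase of cytokine receptors, rose 1.62-fold (edgeR adjusted p = 4.4e-05). Raver1 rose 1.16-fold (edgeR adjusted p = 0.0408), a call lost in 8 of 15 alternatives, including those that left out vehicle library 1, vehicle library 4, IL1B library 1 or IL1B library 3 (up to 0.163). The nearest gene upstream, Mrpl4, stood at 40.3 ± 1.56 and 40.9 ± 5.19 CPM (edgeR adjusted p = 0.899). Genes next to one another share a region, so these are not independent cases.

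**Figure D5:**
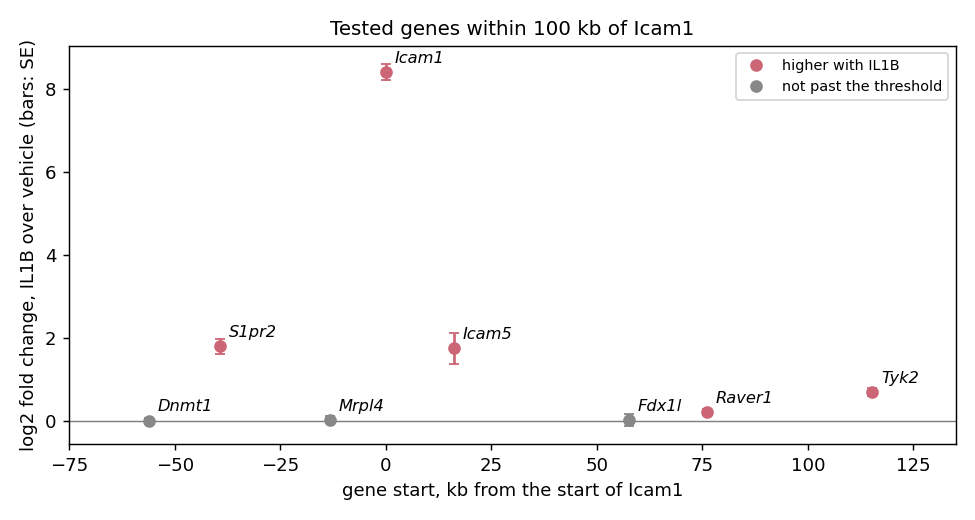
Tested genes within 100 kb of Icam1, plotted by the distance of their start from the Icam1 start in kb, with the log2 fold change and its SE on the vertical axis. Icam1 stands at 8.43, S1pr2 and Icam5 near 1.8, Tyk2 and Raver1 lower, and Dnmt1, Mrpl4 and Fdx1l at 0.

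The windows of Icam4 and Icam5 largely repeat that of Icam1, with 5 of 8 tested genes higher in each. They add Icam1 itself and, for Icam5, Cdc37, a kinase chaperone gene that rose 1.20-fold (edgeR adjusted p = 0.00620), a call lost without the third IL1B library (0.0588). Icam1, like Icam5, met the filter only in IL1B libraries, so the counts in these windows do not set them apart from other genes either. Around the other members, too, 7.76% is the share of all genes called higher, and each window holds few tested genes. Of 6 tested genes within 100 kb of F11r 1 rose, Usf1, 1.36-fold (edgeR adjusted p = 0.00106), and of 3 near Sele, 1 near Cdh1 and 1 near Cd44 none passed. The nearest tested gene to Vcam1, Extl2, rose 1.22-fold (log2 fold change 0.29). Its call was lost when the first or the third treated library was left out (log2 fold change 0.25 and 0.27, edgeR adjusted p up to 0.0707). Ern1, next to Icam2 and encoding the stress sensor IRE1, rose 1.37-fold.

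Because E-selectin, ICAM-1 and MAdCAM-1 are typical of activated endothelium, markers of other cell types were set beside them. Their part in the results was not tested beyond the values given. The 12 endothelial markers summed to 17.1 to 22.9 CPM in vehicle libraries and 19.8 to 22.6 in IL1B libraries. The 3 tested ones, Esam, Vwf and Egfl7, did not pass (0 called by edgeR, DESeq2 or limma-voom, and 0 at an unadjusted edgeR p under 0.05). Of the 9 below the filter, Kdr had 2 vehicle and 4 IL1B counts, Tie1 2 and 0, Emcn 0 and 1, and Cldn5 1 and 0. Cdh5 had 30 and 20, Flt1 29 and 26, and Tek 10 and 10. Plvap had 11 and 21, a ratio of 2.54 (95% counting interval 1.17 to 5.84), and without the filter it did not pass (edgeR adjusted p = 0.210). Pecam1, itself a transmigration receptor, had 17 vehicle and 41 IL1B counts, a ratio of 3.21 (95% counting interval 1.78 to 6.03). It stayed below the filter, and without the filter it passed (edgeR adjusted p = 0.00578). The 12 leukocyte markers summed to 10.9 to 14.7 and 10.8 to 14.0 CPM, with Ptprc at 8 and 9 counts and Tyrobp at 0 in all libraries, and the 2 tested, Cd68 and Coro1a, did not pass (0 by the other tools and at an unadjusted p under 0.05). The fibroblast and duct or acinar lists summed to at most 7.93 and 27.7 CPM in any library, and none of their tested genes passed (Col1a2, Pdgfra, Krt7, Sox9 and Spp1; 0 by the other tools and at an unadjusted p under 0.05). Markers of other islet cells summed to 1312 ± 76.8 CPM with vehicle and 1224 ± 69.9 with IL1B. Of the 5 tested, Irx2 fell (9.19 ± 0.801 to 5.16 ± 0.710 CPM), and Gcg, Sst, Irx1 and Ttr did not pass. Of 10 beta-cell markers, 2 fell, where 3.25% of all genes tested did. Mean Pdx1 went from 354 CPM with vehicle to 239 with IL1B (edgeR adjusted p = 3e-07), and Mafa from 211 to 152 (edgeR adjusted p = 7e-06). Ins1, Ins2, Iapp, Nkx6-1, Slc2a2, Slc30a8, Pcsk1 and G6pc2 did not pass. Of these, Nkx6-1 and Slc30a8 had groups that did not overlap, with IL1B lower, as had 8.83% of all genes tested, and the groups of the others overlapped. At an unadjusted edgeR p under 0.05, 4 of the 10 were lower and 2 higher. The share of all genes at that cutoff was not taken, so these 2 counts have no background to be read against.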

How the data were processed

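RNA was measured in 7 libraries of Beta-TC6 cells (4 vehicle, 3 IL1B). The values, as deposited by the authors, are raw read counts, with 1 row for each gene symbol. Per the submitters' processing notes the study used mouse build mm10 (the assembly also called GRCm38) and STAR, RSEM, HOMER, Bowtie2, DESeq2 and R 4.1.0 among other tools, with no roles given; the sources do not say which of them aligned or counted these reads, or with which annotation and strand setting. The table numbers its IL1B columns 1, 2 and 3 and the titles number those samples 1, 3 and 4, so these columns were assigned to the group only and keep the table's numbers here.

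The quasi-likelihood F test of edgeR 4.0.16 (run under R 4.3.3) was fitted to the whole table after filterByExpr and TMM scaling, with no covariate, and tested on simulated data. Each SE is the size of the log2 fold change divided by the root of its F. Counting intervals are exact conditional binomial intervals at 95%. Alternatives were limma-voom (limma 3.58.1), DESeq2 1.42.0, other scalings, filtering at 1 CPM in 3 libraries or not at all, leaving libraries out, and a replicate block on the column numbers. Locations and lengths are from GENCODE on GRCm38, and promoter windows from RefSeq (GRCm38.p6). Near copies were sought by blastn 2.17.0 at 95% identity, and only the best-matching other gene of each member was kept. That gene shared 20% or more of the longest transcript for Icam1, Icam4 and Icam5 only. In each case it was an opposite-strand model named in the text.

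The members and lists were chosen with earlier results of these data known. Genes were named by rule: the members, up to 4 genes per list with the smallest adjusted p, tested markers, the 3 transcripts most like each member by Pearson r of log2 CPM (prior count 2), and nearest neighbours. Others named were chosen after their values were seen, and a few genes that the rule names are not reported here.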

Additional observations from a re-analysis of the deposited data

Results flagged for a closer look

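In the vehicle group, 2 of 15 sets of values (each member and each marker list) held 1 library that Dixon's criterion at 95% set apart from its 3 companions, where chance gives about 0.75 (about 1 in 20). For Icam2 it was the fourth vehicle library, at 0.186 CPM against 0 in the others, and for Sele the second, at 0.157 CPM against 0. Each of these rests on 1 count, and a lone count beside libraries at 0 always meets the criterion. The chance rate is for values that vary smoothly, so the comparison with 0.75 says nothing of these libraries.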

How the results depend on the processing

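Icam1, Sele, F11r and Icam5 were called higher in each of 15 alternatives, with log2 fold changes of 8.17 to 8.85, 6.59 to 8.99, 1.59 to 1.69 and 1.56 to 1.97, and the highest adjusted p was 0.0245, for Icam5 without the first IL1B library. The lowest Sele value came from limma-voom and the highest without the second vehicle library, where no vehicle count remained. Cd44 stayed short of the threshold (adjusted p 0.228 to 0.616), and so did Cdh1 (0.420 to 0.980), whose log2 fold change ran from -0.26 without the third IL1B library to 0.0114 without the first; the cause was not tested. Over all genes, 255 fell with DESeq2, 252 to 589 with 1 library left out (252 without the third IL1B library), and 676 when both second libraries were left out, against 406; 769 to 1128 rose with 1 library left out, against 968. Of the adhesion lists, 2 to 6 genes fell with 1 library left out (2 without the second IL1B library) and 7 when both second libraries were left out, against 4; the cause was not tested. With lengths from the longest transcript, 5 members again reached 1 CPM per kb with IL1B. The labels do not match the IL1B columns to the title numbers. A replicate block was fitted on the column numbers of the table, chosen after seeing the data. With it 794 genes rose and 250 fell, and the same 4 members rose. Among 35 named genes, Gcnt1, Cdh22, Ctnnb1, Adam15, Raver1, Cdc37 and Extl2 lost their calls (edgeR adjusted p 0.0529 to 0.135). Deviations from the group means correlated at 0.135, 0.0204 and -0.0162 in the same-numbered pairs, so the column numbers were not taken to pair the libraries. The best match of IL1B library 1 was vehicle library 1 (0.135), of IL1B 2 vehicle 3 (0.0737) and of IL1B 3 vehicle 4 (0.0507). That is the order of the title numbers 1, 3 and 4. The correlations are small, the columns were not reassigned from them, and a block on that order was not fitted. The depth left Icam2, Icam4 and Vcam1 below the filter, and without it none of them passed.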
